A study of Mus musculus with 8 samples.

Results

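Ubiquitin-specific proteases (USPs) are the largest class of deubiquitinases, cysteine proteases that remove ubiquitin from proteins and so reverse the work of ubiquitin ligases. Individual USPs act on histones H2A and H2B, on DNA repair factors, on receptors that are sorted through endosomes, on the proteasome and on mitochondria, and some family members have lost the catalytic residues. In male germ cells, ubiquitin on histones marks the silent sex chromosomes of meiosis and, later, the chromatin of spermatids that are replacing histones with protamines. The genes described here were all those of the expression tables whose symbol begins with Usp followed by a digit, which gave 56 of 23343 genes and 59 of 26099 isoform rows. By name alone the rule also took in Usp6nl, which encodes a GTPase-activating protein of Rab GTPases and no protease.

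Testes of adult C57BL/6 mice provided 2 germ cell stages in this study, pachytene spermatocytes (PS), which are in meiotic prophase, and round spermatids (RS), which are haploid. RNA-seq was made from mice lacking both Rnf8, a histone ubiquitin ligase of the DNA damage response, and Scml2, a germline Polycomb protein (dKO), with 2 PS and 2 RS libraries. ChIP-seq of H3K27ac, acetylation of histone H3 at lysine 27 that marks active promoters and enhancers, was made from wild-type mice, also with 2 samples per stage. Cells were enriched by sedimentation through albumin, at small scale for the dKO, where a single male yielded both stages. Every RNA library carried both deletions and no wild-type RNA was analysed here, so the RNA values compare stages within the dKO and say nothing of the effect of the deletions. The labels do not tie samples to animals, and p-values measure the spread between these samples.

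The RNA libraries held 9655405 to 12289694 reads on genes. Reads remained on both deleted genes, at 50 to 110 for Rnf8 and 40 to 98 for Scml2, in a table with 1 row per gene that does not show the deleted exons and with no wild-type library to compare them with. RPKM (reads on a transcript scaled to its length and to the depth of the library) was summed over lists of markers. Over 10 spermatocyte markers it was 748 to 788 in PS and 287 to 334 in RS. Of these Piwil1 alone had 286 and 326 RPKM in PS and 9.91 and 17.6 RPKM in RS. Dmc1 and Ccna1 went the other way, at 3.28 and 3.93 RPKM and 76.7 and 108 RPKM in PS. In RS they had 9.69 and 9.41 RPKM and 120 and 113 RPKM. Sycp1 overlapped between stages, and the rest were lower in RS. Over 10 spermatid markers the sum was 563 to 916 in PS and 13345 to 14179 in RS. Over 8 spermatogonia markers it was 18.4 to 25.7 in PS and 34.1 to 37.1 in RS. The 6 markers of Leydig cells, the steroid-producing cells between the tubules, summed to 551 to 738 in PS and 42.6 to 68.6 in RS. None was at 0. They thus differed between the same stages as every RNA comparison below, in the direction of the falling genes. Macrophage markers summed to 1.79 to 2.41 in PS and 13.4 to 14.3 in RS over 5 genes. Sertoli cell markers summed to 3.56 to 8.13 in PS and 10.4 to 14.0 in RS over 7 genes. Aard alone had 2.41 and 1.20 RPKM in PS and 8.38 and 5.86 RPKM in RS. Wt1 and Rhox5 were also higher in RS, Amh was lower, and Sox9, Gata4 and Cldn11 overlapped. The spermatogonia, macrophage and Sertoli cell sums thus differed in the direction of the rising genes. The part of these cells in the results was not tested, and fewer cells of a type cannot be told apart from less RNA per cell in such bulk samples.

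The results turned on a few promoters, and the 200 bases before the start site of each are shown here, 5′ to 3′ on the strand of the gene. Usp2 is shown at 2 of its start sites, which changed in opposite directions. Usp50, Usp12 and Usp25 had RNA and H3K27ac that were both higher in RS, and Usp51 had both higher in PS. Capitals mark the GC box, GGGCGG, which is the binding motif of Sp1, and the MYB motif TAACNG, each searched on both strands. Sequences and positions are of RefSeq on GRCm38.p6, the assembly behind the mm10 coordinates of the files. The windows were chr9:44066821-44067020 (plus strand) and chr9:44084720-44084919 (plus strand) for Usp2, chr2:126783461-126783660 (minus strand) for Usp50, chr5:146794957-146795156 (minus strand) for Usp12, chr16:77013869-77014068 (plus strand) for Usp25 and chrX:153006269-153006468 (plus strand) for Usp51.
Usp2 upstream start: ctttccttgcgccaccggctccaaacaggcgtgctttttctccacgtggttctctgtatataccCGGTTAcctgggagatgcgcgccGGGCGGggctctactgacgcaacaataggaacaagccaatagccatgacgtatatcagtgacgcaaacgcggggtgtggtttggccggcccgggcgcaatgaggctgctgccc
Usp2 downstream start: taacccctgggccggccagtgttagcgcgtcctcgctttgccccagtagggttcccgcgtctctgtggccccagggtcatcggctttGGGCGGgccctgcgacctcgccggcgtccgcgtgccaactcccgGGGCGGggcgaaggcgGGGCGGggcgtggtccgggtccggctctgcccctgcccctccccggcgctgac
Usp50: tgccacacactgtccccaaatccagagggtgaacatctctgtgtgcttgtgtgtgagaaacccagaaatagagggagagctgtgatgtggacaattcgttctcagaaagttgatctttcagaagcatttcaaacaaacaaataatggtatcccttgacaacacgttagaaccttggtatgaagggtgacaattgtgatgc
Usp12: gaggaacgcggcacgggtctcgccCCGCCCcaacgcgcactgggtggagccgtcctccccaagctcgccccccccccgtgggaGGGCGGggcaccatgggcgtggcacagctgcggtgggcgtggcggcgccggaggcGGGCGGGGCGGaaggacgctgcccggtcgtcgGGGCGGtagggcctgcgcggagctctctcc
Usp25: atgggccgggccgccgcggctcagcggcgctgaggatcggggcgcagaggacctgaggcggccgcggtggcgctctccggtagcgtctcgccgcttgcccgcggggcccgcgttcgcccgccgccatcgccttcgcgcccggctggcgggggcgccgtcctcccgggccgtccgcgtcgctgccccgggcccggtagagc
Usp51: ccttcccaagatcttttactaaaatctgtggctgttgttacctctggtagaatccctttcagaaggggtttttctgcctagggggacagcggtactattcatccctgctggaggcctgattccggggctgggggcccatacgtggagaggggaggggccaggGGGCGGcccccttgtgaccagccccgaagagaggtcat

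The windows differed in base composition. Usp50 had 2 CpG dinucleotides and 43.5% G and C, and Usp51 had 5 CpG and 58% G and C, against 27 CpG at Usp12 and 37 at Usp25. The upstream start of Usp2 had 17 CpG, 1 GC box and 1 MYB motif, the latter beginning 136 bases before the start, and the downstream start had 24 CpG and 3 GC boxes. Usp12 had 5 GC boxes, 2 of them overlapping each other, and neither motif was found in the windows of Usp50 and Usp25. Among the 44 promoter windows of 43 Usp genes in the RefSeq table, 27 (61.4%) held a GC box, against 31.0% of all 32851 windows. Of these Usp windows 35, of 34 genes, were at a start site used for RNA and H3K27ac here. The other windows were at a different start, and some Usp genes had no window. The median Usp window had 18 CpG dinucleotides, against 5 over all windows. A MYB motif was present in 18.2% of Usp windows and 16.0% of all, and the full cAMP response element, TGACGTCA, in 0 of 44 Usp windows and 1.47% of all. A match to these letters is a description of the sequence and not evidence of binding.

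Usp transcripts were a small share of the RNA. They took 0.713% and 0.669% of the reads on genes in the PS libraries and 0.770% and 0.786% in the RS libraries, so both RS values lay above both PS values. The 5 genes with the highest RPKM held 45.8% of the summed Usp RPKM in PS and 46.6% in RS. In both stages these were Usp1, Usp2, Usp8, Usp15 and Usp47. Usp1, which removes ubiquitin from FANCD2 and PCNA, had 168 and 157 RPKM in PS and 144 and 157 RPKM in RS. Usp8, which acts on endosomal cargo, had 135 and 132 RPKM in PS and 130 and 135 RPKM in RS. Usp47, which takes part in base excision repair, had 106 and 107 RPKM in PS and 122 and 143 RPKM in RS. None of these 3 genes was called between stages. By mean RPKM the order in PS was Usp1, Usp2, Usp8, Usp47 and Usp15, and in RS Usp2, Usp15, Usp1, Usp8 and Usp47. The values of Usp2 and Usp8 overlapped in PS, and in RS those of Usp15 overlapped with Usp1 and those of Usp8 with Usp47, so these neighbours did not differ beyond their spread. In PS 13 of 56 genes and in RS 12 of 56 were below 1 RPKM.

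At the other end, the 5 copies of the Usp17 family, Usp17la to Usp17le, all on chromosome 7, had 0 reads in all 4 libraries, which allows up to 3 reads per library. These copies are nearly identical, and the counting used reads that aligned uniquely, so a read shared among copies could not be counted. Usp13, Usp18 and Usp29 had too few reads to test, at 0 to 0.202 RPKM. The remaining 48 genes were tested.

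Of the 48 tested genes, 14 rose and 11 fell from dKO PS to dKO RS at an adjusted p under 0.05 and a change over 1.5-fold, by the edgeR quasi-likelihood test with Benjamini-Hochberg adjustment over 14647 genes. That is 29.2% rising and 22.9% falling, beside 30.4% and 27.6% of all genes tested, so the family changed about as often as other genes. Its median log2 change was 0.24, against 0.01 over all genes, and was 0.11 when the second PS library was left out. Of the 42 autosomal Usp genes tested, 10 rose and 10 fell (23.8% each), beside 29.3% and 28.5% of all autosomal genes. The median log2 change was 0.10 over these autosomal Usp genes and -0.04 over all autosomal genes. The samples of each called gene are plotted by stage. The calls rest on these same libraries, so a gap between stages in a called gene is a description and no further support.

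**Figure D1:**
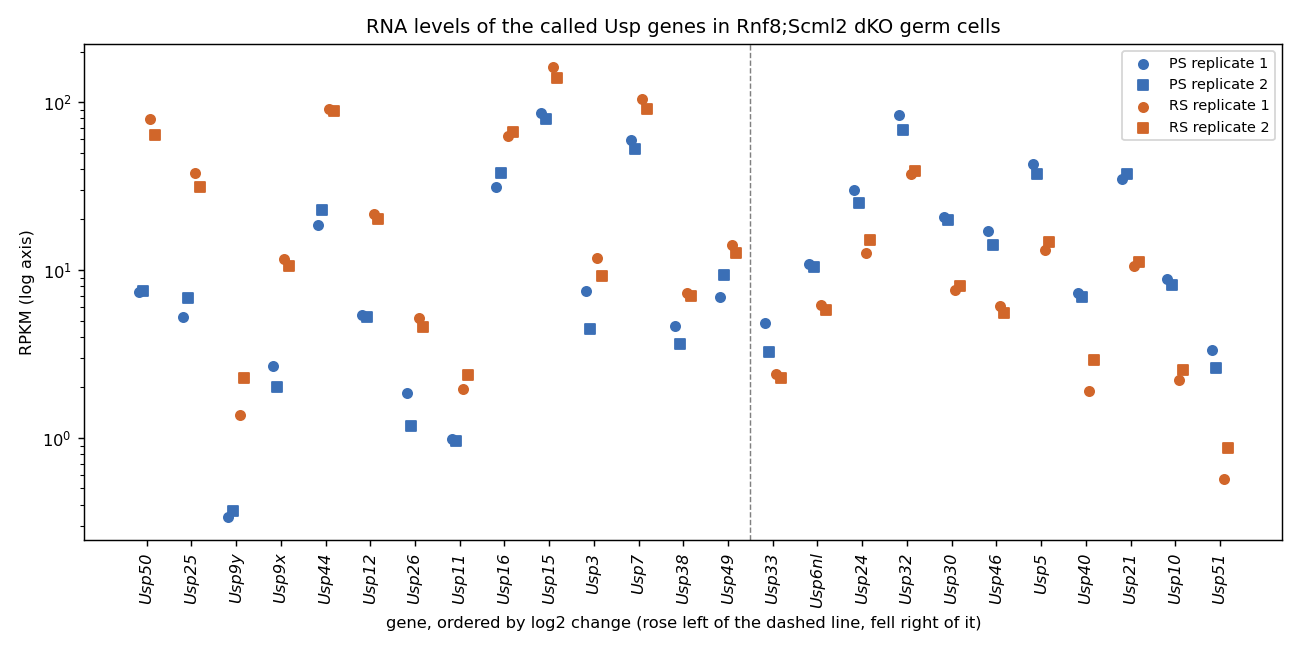
RPKM (log axis) of each of the 25 called Usp genes in every dKO library, with PS in blue, RS in orange, circles for replicate 1 and squares for replicate 2. The 2 stages did not overlap in any of these genes, which were called on the same libraries. On this axis the widest gap was that of Usp50, at 7.43 and 7.52 RPKM in PS against 79.5 and 63.3 RPKM in RS.

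Outside the histone and sex-linked genes, which are given below, the largest rises were in genes of different roles. Usp50, an inactive family member, went from 7.43 and 7.52 RPKM in PS to 79.5 and 63.3 RPKM in RS, a log2 change of 3.30 (SE 0.17, adjusted p = 3.6e-06, edgeR). Usp25, which acts in protein quality control at the endoplasmic reticulum, went from 5.27 and 6.81 RPKM to 37.9 and 31.3 RPKM, a log2 change of 2.56 (SE 0.19, adjusted p = 9.5e-06, edgeR). Usp12, which is activated by the WD-repeat protein Wdr48, went from 5.36 and 5.24 RPKM to 21.4 and 20.0 RPKM, a log2 change of 2.01 (SE 0.14, adjusted p = 8.8e-06, edgeR). In each of these 3 genes both RS values were more than 3 times the higher PS value. Usp15, a regulator of SMAD signalling, was already abundant in PS and went from 86.1 and 78.8 RPKM to 163 and 139 RPKM, a log2 change of 0.91 (SE 0.13, adjusted p = 0.00034, edgeR). Usp38 also rose, by 0.83 on the log2 scale.

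The largest falls outside the histone and sex-linked genes were also spread over several roles. Usp10, which acts on p53, went from 8.87 and 8.15 RPKM in PS to 2.21 and 2.54 RPKM in RS, a log2 change of -1.80 (SE 0.19, adjusted p = 6.4e-05, edgeR). Usp40, whose substrates are little known, went from 7.26 and 6.89 RPKM to 1.89 and 2.92 RPKM, a log2 change of -1.52 (SE 0.22, adjusted p = 0.00043, edgeR). Usp5, which takes apart free ubiquitin chains, went from 42.5 and 37.3 RPKM to 13.2 and 14.6 RPKM, a log2 change of -1.48 (SE 0.14, adjusted p = 3.2e-05, edgeR). The stages were well apart in all 3. Usp46, a close relative of Usp12 that also works with Wdr48, went the other way from it, from 17.2 and 14.1 RPKM to 6.09 and 5.53 RPKM, a log2 change of -1.38 (SE 0.17, adjusted p = 0.00016, edgeR). Usp30, which sits in the outer membrane of mitochondria and opposes their removal, went from 20.8 and 19.9 RPKM to 7.58 and 8.03 RPKM, a log2 change of -1.34 (SE 0.15, adjusted p = 9.3e-05, edgeR). Usp32, a membrane-bound enzyme, went from 84.1 and 67.9 RPKM to 37.1 and 38.9 RPKM, a log2 change of -0.96 (SE 0.13, adjusted p = 0.00026, edgeR). Usp24 and Usp6nl fell by 0.94 and 0.79 on the log2 scale. Usp6nl had 10.8 and 10.4 RPKM in PS and 6.17 and 5.75 RPKM in RS, and Usp24 29.8 and 24.9 RPKM in PS and 12.5 and 15.1 RPKM in RS. Leydig cell markers were higher in PS, as the falling genes were, and their part in these falls was not tested.

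The genes were next grouped by role. Of 13 enzymes that act on histones or with Polycomb complexes, all tested, 7 rose, 2 fell and 4 were not called, with a median log2 change of 0.84, and 4 of the 13 are X-linked. Of all genes 30.4% rose and 27.6% fell, and the counts by role are small. Of 7 tested genes of DNA repair and the cell cycle, 1 fell (Usp10) and 0 rose. Of 4 tested genes of the proteasome, free ubiquitin and endoplasmic reticulum quality control, Usp25 rose and Usp5 fell. Of 6 genes of endosomes, membranes and mitochondria, 3 fell (Usp30, Usp32 and Usp33) and 0 rose at the level of the whole gene, and Usp33, at -0.74, lost its call without PS replicate 1, RS replicate 1 or RS replicate 2, at -0.47, -0.69 and -0.60. Of 13 genes of signalling and other substrates, 5 rose and 3 fell, and of 4 tested members that are inactive or do not act on ubiquitin, Usp50 alone rose. The groups were not tested against each other.

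**Figure D2:**
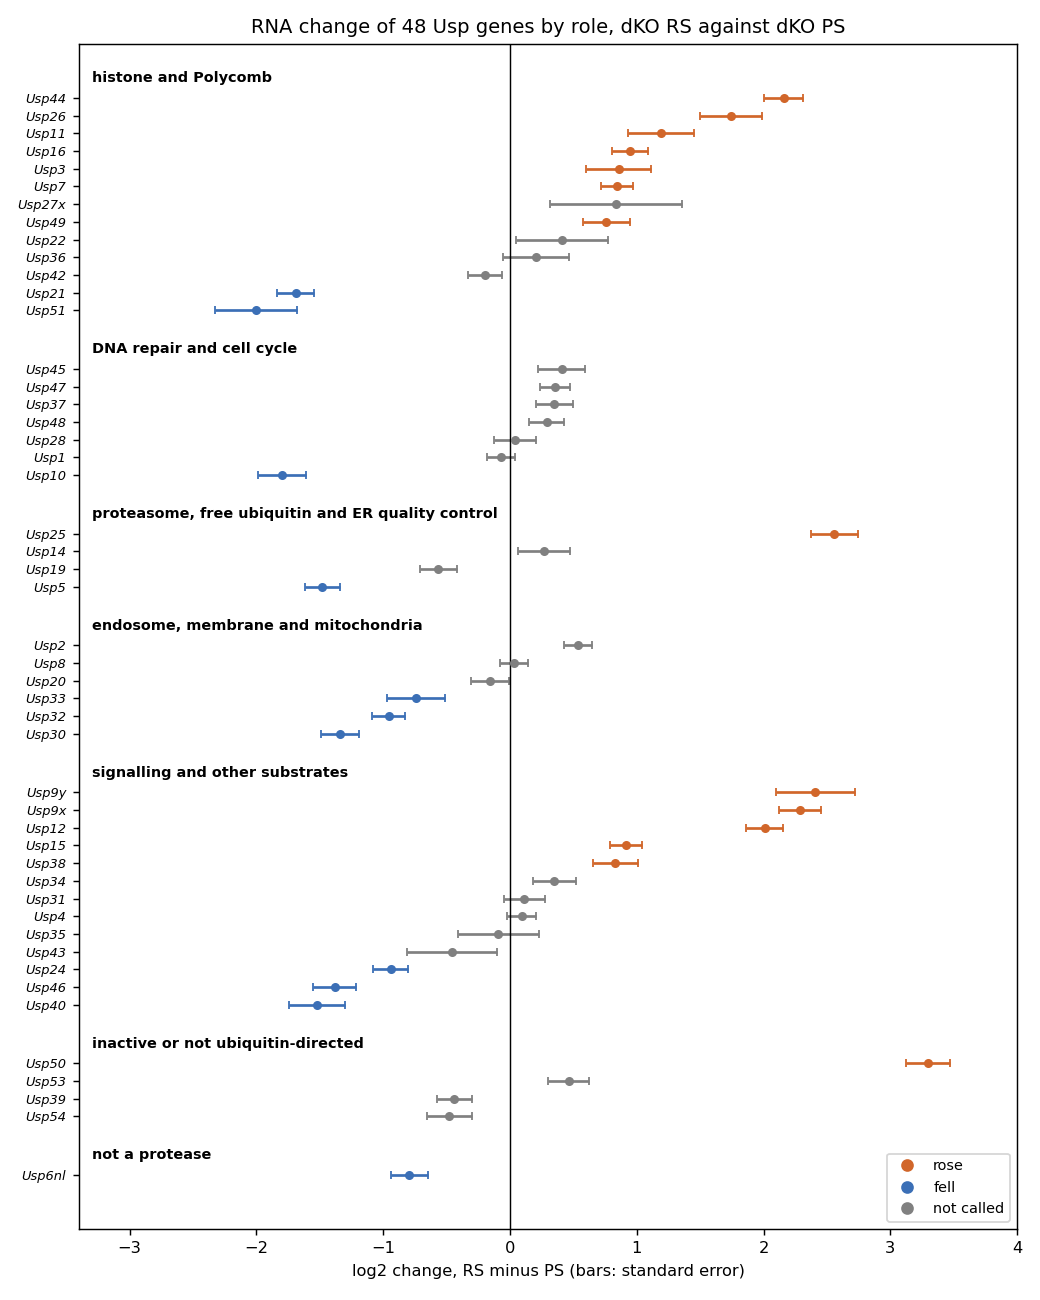
Log2 change from dKO PS to dKO RS (points) with its standard error (bars) for the 48 tested Usp genes, grouped by role, with called rises in orange, called falls in blue and genes not called in grey. Of the 13 histone and Polycomb genes 7 lie in orange on the right, while the group of DNA repair and cell cycle has Usp10 as its single called gene.

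Among the histone enzymes, Usp44, which removes ubiquitin from H2B and restrains entry into anaphase, was the most abundant in RS after Usp7. It went from 18.4 and 22.8 RPKM in PS to 90.9 and 88.1 RPKM in RS, a log2 change of 2.16 (SE 0.15, adjusted p = 8.6e-06, edgeR). Usp16, which removes ubiquitin from lysine 119 of H2A, went from 31.1 and 37.7 RPKM to 62.6 and 66.3 RPKM, a log2 change of 0.94 (SE 0.14, adjusted p = 0.00056, edgeR). Usp7, a partner of variant Polycomb complexes and of MDM2, went from 59.4 and 52.2 RPKM to 104 and 90.7 RPKM, a log2 change of 0.84 (SE 0.13, adjusted p = 0.00050, edgeR). All 3 were separated between stages. Usp3, which opposes the ubiquitination of H2A by RNF8 and RNF168, had 7.49 and 4.46 RPKM in PS and 11.8 and 9.22 RPKM in RS, a log2 change of 0.86 (SE 0.26, adjusted p = 0.017, edgeR), and lost its call when PS replicate 2 or RS replicate 1 was left out, at 0.58 and 0.76. Usp49, an H2B enzyme, had 6.90 and 9.31 RPKM in PS and 14.2 and 12.5 RPKM in RS, a log2 change of 0.76 (SE 0.18, adjusted p = 0.0063, edgeR), and lost its call without PS replicate 1, at 0.52.

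Other histone enzymes fell or were not called. Usp21, an H2A enzyme, went from 34.9 and 37.5 RPKM in PS to 10.6 and 11.2 RPKM in RS, a log2 change of -1.69 (SE 0.15, adjusted p = 2.4e-05, edgeR). Usp22, the deubiquitinase of the SAGA coactivator complex, had 2.90 and 1.24 RPKM in PS and 3.07 and 2.24 RPKM in RS, and its stages overlapped. Without PS replicate 1 Usp22 rose by 1.104 on the log2 scale and without PS replicate 2 it was at -0.03, so its value rested on the PS libraries. Usp36, of the nucleolus, had 1.24 and 0.93 RPKM in PS and 1.08 and 1.35 RPKM in RS, and Usp42 had 38.8 and 42.2 RPKM in PS and 31.3 and 37.6 RPKM in RS, with log2 changes of 0.20 and -0.20 that were not called.

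Of the 6 Usp genes on the sex chromosomes, which are silenced in PS, 4 rose, 1 fell and 1 was not called. Of all 470 X-linked genes tested, 61.9% rose and 1.49% fell, and 3 of the 5 X-linked Usp genes rose and 1 fell. Usp9x, a deubiquitinase of many substrates, went from 2.68 and 2.00 RPKM in PS to 11.6 and 10.5 RPKM in RS, a log2 change of 2.29 (SE 0.17, adjusted p = 9.6e-06, edgeR). Its Y-linked counterpart Usp9y went from 0.336 and 0.367 RPKM to 1.37 and 2.29 RPKM, a log2 change of 2.41 (SE 0.31, adjusted p = 0.00021, edgeR). The pair rose from unequal levels, and Usp9x was higher than Usp9y in every library. The 2 genes are related in sequence, and a read that fits both is lost under unique alignment.

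Usp26, an X-linked gene expressed mainly in testis, went from 1.85 and 1.18 RPKM in PS to 5.21 and 4.60 RPKM in RS, a log2 change of 1.74 (SE 0.24, adjusted p = 0.00034, edgeR). Usp11, which binds BRCA2 and Polycomb proteins, went from 0.988 and 0.962 RPKM to 1.96 and 2.38 RPKM, a log2 change of 1.19 (SE 0.26, adjusted p = 0.0041, edgeR). Usp27x, a relative of Usp22, stayed low, at 0.135 and 0.167 RPKM in PS and 0.221 and 0.314 RPKM in RS, and was not called. Usp51 went against the other X-linked genes. This H2A and H2B enzyme had 3.32 and 2.60 RPKM in PS and 0.573 and 0.869 RPKM in RS, a log2 change of -2.00 (SE 0.33, adjusted p = 0.00080, edgeR), which made it the largest fall of the family and 1 of 7 X-linked genes that fell.

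Usp2, which acts on cyclin D1 and other substrates, was not called as a gene, with 140 and 130 RPKM in PS and 173 and 170 RPKM in RS and a log2 change of 0.54 (SE 0.11, adjusted p = 0.0028, edgeR), below the 1.5-fold limit. It passed that limit without RS replicate 1 or RS replicate 2, at 0.60 and 0.66. The sum joined isoforms that changed in opposite directions. The table holds 3 Usp2 isoforms on the plus strand of chromosome 9, NM_198092 starting at 44067021, NM_016808 at 44069429 and NM_198091 at 44084920, and RefSeq gives a protein of 619 amino acids for the first pair and of 396 for the third. Isoform NM_198092, of the upstream start, had 538 and 804 reads in PS and 6572 and 4970 reads in RS, and isoform NM_198091, of the downstream start, had 4707 and 3971 reads in PS and 2297 and 2248 reads in RS. The upstream starts took 10.3% and 16.8% of Usp2 reads in PS (13.5% ± 4.65, SD, n = 2) and 74.2% and 69.1% in RS (71.6% ± 3.57, SD, n = 2). The Wilson 95% intervals of these 4 shares, which cover counting error only, ran from 9.47% to 17.9% in PS and from 68.0% to 75.1% in RS.

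In a fit across all 15626 isoform rows tested, in which 27.1% rose and 24.7% fell, NM_198092 rose by 2.94 on the log2 scale (SE 0.24, adjusted p = 0.00082, edgeR) and NM_198091 changed by -1.07 (SE 0.12, adjusted p = 0.0019, edgeR). The third isoform, NM_016808, had 0 reads in both PS libraries and 21 and 61 in RS, at least 12.5-fold higher against 3 reads per library, with 5.59-fold by RS replicate 1 alone and 19.5-fold by RS replicate 2 alone. This fit was added after the gene sums had been seen. The authors divided reads among isoforms by expectation maximization, so reads of shared exons were assigned by an estimate.

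H3K27ac at the starts differed in the same directions. Fold enrichment is the fragment pileup at a peak summit over the background, as MACS2 gave it, and the lists imply 1 background for all peaks of a sample, from 0.723 to 1.46 fragments. At the downstream start it was 49.8 and 53.2 in wild-type PS and 22.4 and 16.8 in wild-type RS, and over the upstream starts, which lay in a single H3K27ac region from 44064057 to 44071316, it was 15.6 and 17.0 in PS and 32.1 and 31.9 in RS. The stages did not overlap at either place, and the order was opposite. With 2 against 2 samples, the smallest two-sided p an exact permutation test can give is 0.333, so no test was made at single sites.

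**Figure D3:**
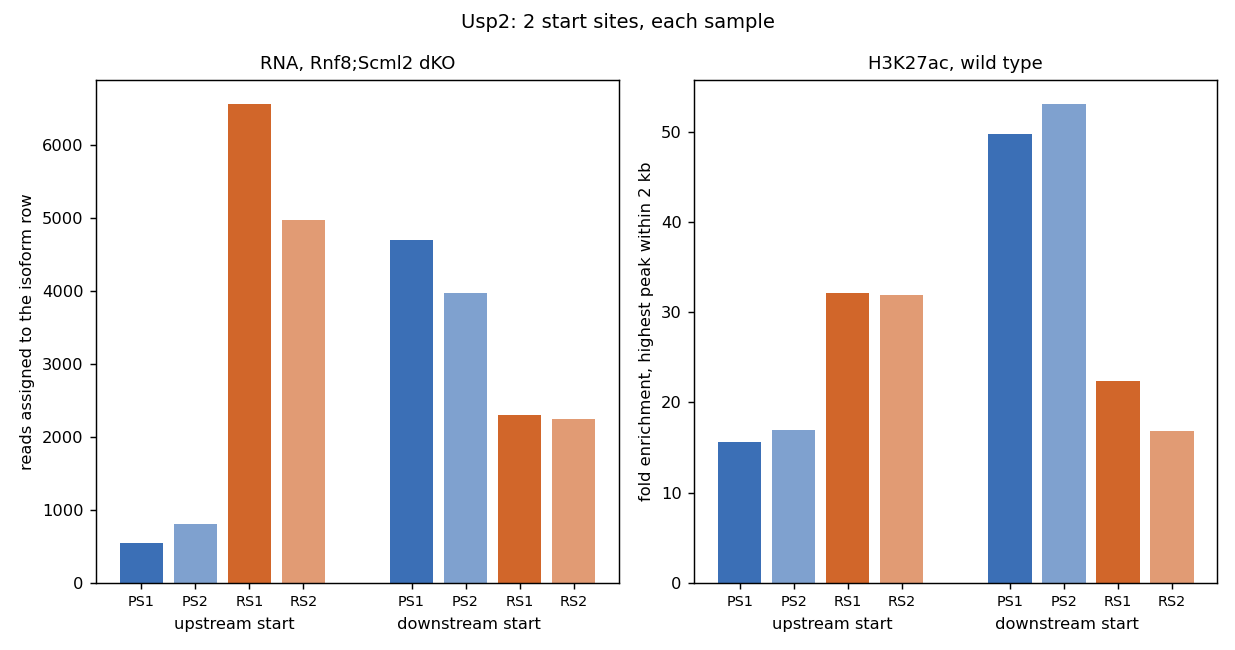
Reads assigned to the Usp2 isoforms NM_198092 (upstream start) and NM_198091 (downstream start) in each dKO RNA library, left, and H3K27ac fold enrichment of the highest peak within 2 kb of each start in each wild-type sample, right. At the upstream start both RS bars exceed both PS bars in each panel, at 6572 and 4970 reads against 538 and 804, and at the downstream start the order is reversed.

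H3K27ac at the start sites was measured as the highest fold enrichment of any peak within 2 kb of a start of the gene, with 0 where no peak was called. Of 56 genes, 49 had a peak in at least 1 wild-type sample and 46 in all 4. No peak was called near Usp43, Usp54 or the 5 Usp17 copies. A gene was counted as higher in a stage where both its samples lay above both of the other stage. By that count 34 of 49 (69.4%) were higher in PS, 3 in RS and 12 overlapped, beside 54% of all 14736 genes with a peak higher in PS and 13.6% higher in RS. Over the 11394 genes with a peak in all 4 samples, the median sample value also differed. It was 17.3 and 18.6 in PS and 15.5 and 11.6 in RS. The median log2 difference was -0.39 over these genes and -0.50 over the 46 Usp genes among them. After each value was divided by its sample median, 21 Usp genes were higher in PS and 13 in RS. Of all 14736 genes with a peak these shares were 35.1% and 30.9%. Usp14 and Usp47 changed from higher in PS to higher in RS. Directions below hold under both scales unless stated.

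The 3 genes higher in RS were Usp50, Usp12 and Usp25. Usp50 had fold enrichments of 7.82 and 8.77 in PS and 25.2 and 23.8 in RS. Usp12 had 15.6 and 19.2 in PS and 28.1 and 26.7 in RS, and Usp25 had 19.3 and 21.9 in PS and 35.0 and 23.2 in RS. In Usp50 and Usp12 the stages were far apart, and in Usp25 the lower RS sample lay just above the higher PS sample. By pileup in place of fold enrichment, Usp25 was not counted as higher in RS. The 200-base window of Usp50 was poor in CpG and those of Usp12 and Usp25 were rich in CpG, as printed above.

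The largest differences with H3K27ac higher in PS were at Usp35, Usp18, Usp51, Usp11 and Usp1. Usp35 had 7.00 and 6.58 in PS and no peak in RS, and Usp18, an enzyme that removes the ubiquitin-like protein ISG15, had 3.29 and 3.84 in PS and no peak in RS. Their RNA was low throughout, with Usp35 at 0.661 and 0.836 RPKM in PS and 0.664 and 0.704 RPKM in RS. Usp51 had 21.8 and 28.0 in PS and 7.32 and 7.55 in RS, in the same direction as its RNA. Usp11 had 23.9 and 23.0 in PS and 7.73 and 8.13 in RS, while its RNA rose. Usp1 had 30.9 and 36.2 in PS and 11.0 and 12.8 in RS, while its RNA was not called.

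**Figure D4:**
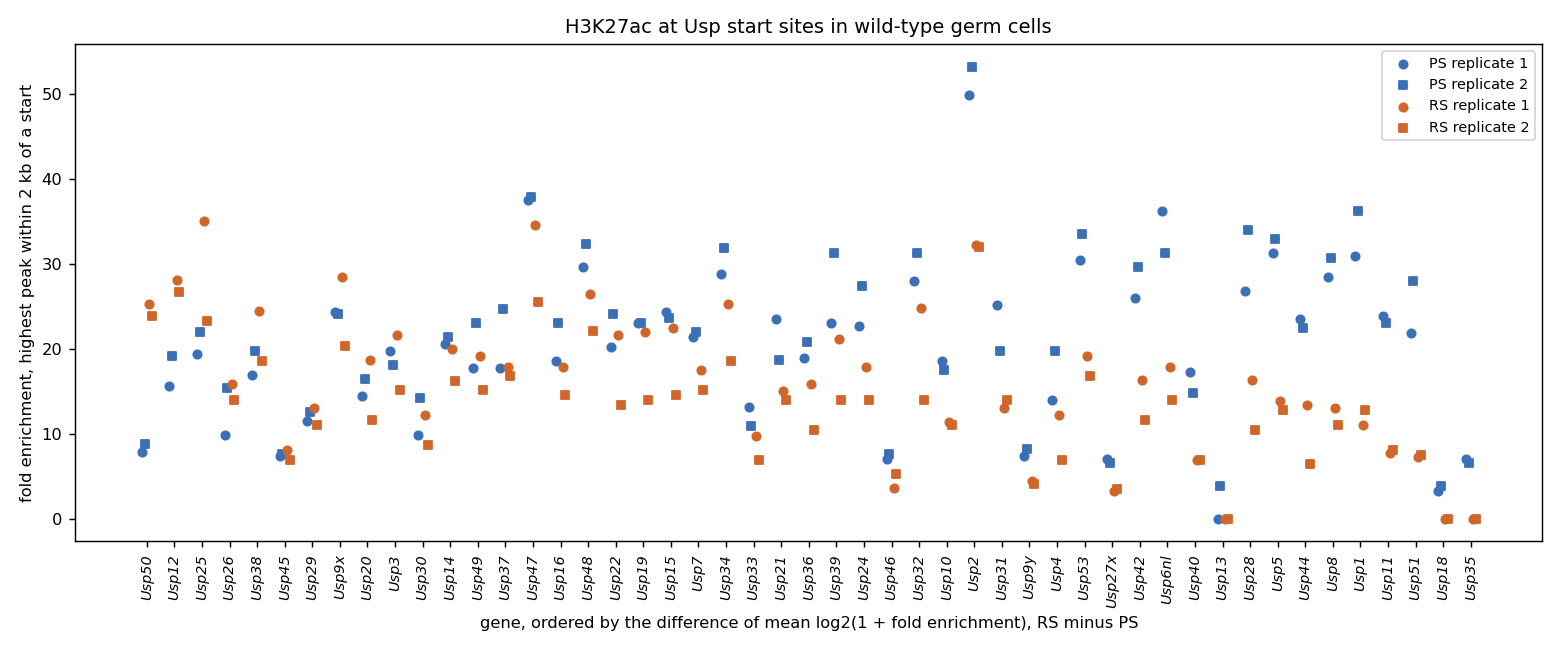
H3K27ac fold enrichment of the highest peak within 2 kb of a start site in each wild-type sample, for the 49 Usp genes with a peak, ordered by the difference of mean log2(1 + fold enrichment) between RS and PS. Usp50, Usp12 and Usp25 lie at the left with RS (orange) above PS (blue), Usp2, shown by its strongest start, reaches 53.2, and Usp18 and Usp35 at the right have no RS peak.

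The other sex-linked and histone genes differed in their H3K27ac. Usp9x had 24.3 and 24.1 in PS and 28.5 and 20.3 in RS, which overlapped and was higher in RS once scaled, and its RNA rose. Usp9y had 7.41 and 8.22 in PS and 4.48 and 4.06 in RS, and Usp27x had 7.00 and 6.58 in PS and 3.25 and 3.48 in RS. Both were lower in RS in H3K27ac, although Usp9y rose in RNA. Usp26 overlapped, at 9.88 and 15.3 in PS and 15.9 and 13.9 in RS, and was higher in RS once scaled. Usp44 had 23.5 and 22.5 in PS and 13.4 and 6.39 in RS, against a rise in RNA. Usp21 had 23.5 and 18.6 in PS and 15.1 and 13.9 in RS, which overlapped once scaled. Usp3 had 19.8 and 18.1 in PS and 21.6 and 15.1 in RS. Usp49 had 17.7 and 23.0 in PS and 19.1 and 15.1 in RS. Both overlapped as listed and were higher in RS once scaled, and the RNA of both rose. Usp16, whose RNA also rose, was higher in PS as listed and overlapped once scaled. Usp22 overlapped on both scales, and Usp36 and Usp42 were higher in PS on both.

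Some start sites lay close to that of another gene, so that a peak could not be given to either. Usp27x and Gm14379 start 95 bases apart, Usp29 and Peg3 322 bases, Usp20 and BC005624 338 bases, Usp5 and Cdca3 729 bases, and Usp37 and Plcd4 1397 bases apart. Usp5 was the called gene among these, with H3K27ac of 31.3 and 32.9 in PS and 13.8 and 12.8 in RS at a region shared with Cdca3, which had 1819 and 1978 reads in PS and 2600 and 2125 in RS. Usp16 overlaps the opposite-strand gene Cct8 by 188 bases and Usp37 overlaps Rqcd1 by 24782 bases, and whether strand was used in counting is not given in the sources used here.

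Regions away from the start sites were compared on the values as listed, without scaling. Regions more than 2 kb from a start and assigned to a Usp gene in the peak lists numbered 300, of which 28 had peaks in both RS and neither PS sample, 13 in both PS and neither RS sample and 20 in all 4. The stage-specific shares were 9.33% and 4.33%, beside 9.33% and 7.02% of 75096 such regions of all genes. The remaining 239 were present in other combinations, and the samples differed in their total of peaks, from 41095 to 74919. Of the 20 regions in all 4 samples, 11 were higher in RS, 6 in PS and 3 overlapped, beside 57.4% higher in RS and 26.5% in PS among 6610 such regions of all genes, which is about the same share. None of the 20 lay within 2 kb of a start of another gene in the table.

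The highest of them was in an intron of Usp7, at chr16:8717039-8723839 and 14503 bases from its start, with 13.2 and 13.7 in PS and 28.5 and 23.8 in RS. The start of Usp7 itself had 21.4 and 21.9 in PS and 17.5 and 15.1 in RS and overlapped once scaled, so that in RS the intronic region was the stronger. A region annotated as exonic in Usp15, at chr10:123144562-123148837 and 48086 bases from its start, had 8.64 and 8.77 in PS and 23.2 and 19.2 in RS, while the start of Usp15 had 24.3 and 23.6 in PS and 22.4 and 14.5 in RS, which overlapped once scaled. Upstream of Usp44, 10507 bases from its start, a region had 7.00 and 5.48 in PS and 16.7 and 11.6 in RS, opposite to its start site. All 3 genes rose in RNA, but of the 11 regions higher in RS 4 belonged to genes that rose, 3 to genes that fell and 4 to genes not called. Usp46, which fell, had such a region 31821 bases from its start, at 5.76 and 4.93 in PS and 12.6 and 9.29 in RS. In the other direction, an intergenic region 60357 bases from Usp12 had 16.1 and 17.5 in PS and 6.51 and 5.22 in RS, while the start site and the RNA of Usp12 were higher in RS, and a region assigned to Usp46, 286083 bases away, had 16.9 and 16.4 in PS and 4.48 and 4.06 in RS. These regions were picked out after their values had been seen, and assignment to a gene is by position alone.

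RNA and H3K27ac were compared in 45 Usp genes that were tested for RNA and had a peak in all 4 samples. Across these genes the log2 RNA change and the H3K27ac difference were correlated at r = 0.53 (Pearson) and rho = 0.43 (Spearman), beside 0.54 and 0.43 across 10773 genes. The shares and medians over all genes below were taken over these 10773, chosen by the same rule. The points share libraries, RNA is of the dKO and H3K27ac of the wild type, and genes are not independent replicates. Of the 11 genes whose RNA fell, 10 were higher in PS in H3K27ac as listed and 6 once scaled, beside 73.6% and 48.5% of all falling genes. Of the 14 whose RNA rose, 3 were higher in RS and 6 in PS as listed, beside 40.7% and 29.1% of all rising genes, and 8 were higher in RS and 3 in PS (Usp11, Usp44 and Usp9y) once scaled, beside 66.1% and 15.6%. The balance among the rising genes thus turned with the scaling. Of 20 not called, 16 were higher in PS as listed and 10 once scaled, beside 64.5% and 38% of all such genes. The rising Usp genes had a median H3K27ac difference of -0.15 and the falling Usp genes of -0.64, on the log2(1 + fold enrichment) scale, beside 0.06 and -0.56 over all rising and falling genes.

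**Figure D5:**
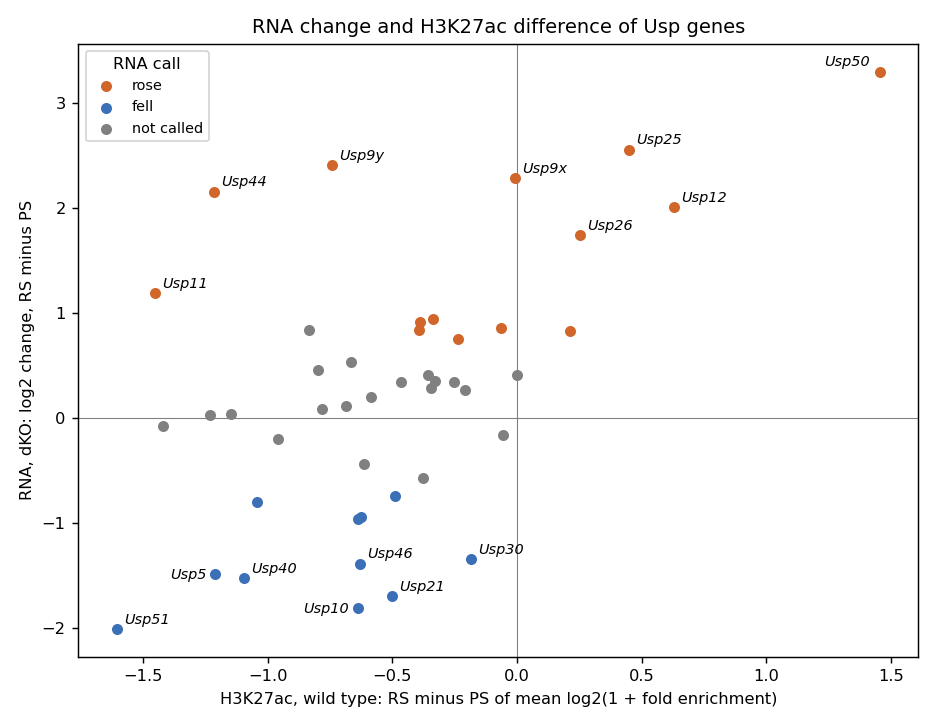
Log2 RNA change in the dKO (vertical) against the difference of mean log2(1 + H3K27ac fold enrichment) in the wild type (horizontal), RS minus PS, for 45 Usp genes coloured by RNA call. Usp50 lies alone at the top right, Usp51 at the bottom left, and Usp44, Usp11 and Usp9y at the upper left with RNA higher and H3K27ac lower in RS.

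The other deubiquitinases, genes with a USP fold and another name, and the partners of USPs were taken from lists of 62 genes. Among them 60 were in the table and 58 were tested. Of these 17 rose and 15 fell, with a median log2 change of 0.03, close to the 30.4% and 27.6% of all genes, against which the counts of the single lists below are also to be read. Among ovarian tumour (OTU) domain proteases, 8 of 15 rose and 3 fell. Otub2 had 13.1 and 17.5 RPKM in PS and 134 and 128 RPKM in RS, a log2 change of 3.15 (SE 0.17, adjusted p = 3.8e-06, edgeR), and Otud4 and Yod1 rose by 2.03 and 2.00 on the log2 scale, while Otud7a, Vcpip1 and Fam105b fell by 1.14, 0.86 and 0.59. Of the metalloproteases, Stambpl1 rose by 2.82 and its relative Stambp fell by 2.55, from 36.3 and 35.9 RPKM to 5.47 and 6.49 RPKM, and the proteasome subunit Psmd14 fell by 1.25. Atxn3, of the Josephin class, rose by 2.17, and Bap1, an H2A enzyme of the UCH class, rose by 0.72. Of the listed genes with a USP fold and another name, not all of which need be active proteases, Pan2 fell by 0.99.

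Of 13 cofactors of USP enzymes, 2 rose and 4 fell. Stam and Wdr20a rose by 0.98 and 0.68 on the log2 scale, and Psmd1, Eny2 and Wdr20b fell by 1.04, 0.86 and 0.84. Wdr48, the activator of Usp1, Usp12 and Usp46, was not called, at 222 and 234 RPKM in PS and 155 and 159 RPKM in RS. Of 9 ligases that place ubiquitin on histones or act with them, 4 fell and 1 rose. Pcgf6, of a variant Polycomb complex, fell from 63.0 and 58.2 RPKM to 10.9 and 11.0 RPKM, a log2 change of -2.42 (SE 0.14, adjusted p = 4.1e-06, edgeR), Rnf20, a ligase of H2B, fell by 1.23, and Rnf168, a ligase of H2A, fell by 1.05, while Bmi1 rose by 1.31. Among genes of ubiquitin and its activation, the activating enzyme Uba1 rose by 1.23 on the log2 scale, and Rps27a, which encodes ubiquitin fused to a ribosomal protein, fell by 1.82, with 230 and 192 RPKM in PS and 59.9 and 56.0 RPKM in RS.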

How the data were processed

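RNA of dKO cells and H3K27ac of wild-type cells were deposited as 1 table per sample, with 2 samples per group. For RNA, the authors aligned reads with STAR 2.4.2a, keeping unique alignments with at most 2 mismatches, and divided them among RefSeq isoforms by expectation maximization. The deposited tables give read counts and RPKM per isoform. For H3K27ac, alignment was with Bowtie and peaks were called per sample with MACS2 (versions 1.1.1 and 2.1.0.20140616 in the submitters' processing notes), and the deposited peak lists give the signal as pileup, the fold enrichment as a ratio over background, and the p- and q-values as −log10.

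Counts and RPKM were summed per gene. Genes that reached 10 counts in 2 or more samples were tested with edgeR 4.0.16 (quasi-likelihood, TMM, R 4.3.3), with Benjamini-Hochberg adjustment over all genes tested and calls at an adjusted p under 0.05 and over 1.5-fold. At 9655405 to 12289694 reads on genes per library, 3 Usp genes with reads were too low to test. H3K27ac was the highest fold enrichment within 2 kb of a start, with a pseudocount of 1 on the log2 scale. Alternatives were DESeq2 1.42.0, other scalings, filters, windows and replicates left out, and the test was tried on simulated data. Sequences were searched with Python 3.11.15.

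The members and gene lists were chosen with earlier results of these data known. Named were the 10 called members with the largest change each way, the 5 highest in each stage, all on X or Y, all of the histone and Polycomb list, the 5 with the largest H3K27ac difference each way among those whose stages did not overlap, those with no peak, and the 3 called genes with the largest change each way per pathway list. Other genes were named after their values were seen, or to complete a count. Some genes of the pathway lists are not reported here by name.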

Additional observations from a re-analysis of the deposited data

How the results depend on the processing

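With 2 samples per group and a single genotype per assay, stage cannot be told apart from anything else that differed between the preparations. The counts of 14 rising and 11 falling Usp genes, and of 17 and 15 pathway genes, stayed within 1.5 times under every alternative run (DESeq2, DESeq2 size factors, library totals, no filter on low counts, the isoform with the most reads, adjusted p alone, each replicate left out and the replicate block). Without a filter the median of all genes shifted by 0.17. The replicate block called 14 and 11 Usp genes. Same-numbered samples deviated together with a correlation of 0.22 over 14647 genes, but no label ties the numbers to animals. The median Usp change ranged from 0.11 to 0.26 with replicates left out. Of 25 called genes 3 lost their call under some alternative, Usp3, Usp33 and Usp49, each with a replicate left out, and Usp2, Usp19, Usp22, Usp34 and Usp45 gained one under some alternative that kept the fold limit. By adjusted p alone 17 Usp genes rose and 14 fell, the added genes being Usp2, Usp47, Usp53, Usp19, Usp39 and Usp54. The Usp2 isoforms NM_198092 and NM_198091 kept their calls in all 7 alternatives run on isoforms, at 2.63 to 3.33 and -1.13 to -0.88.

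The H3K27ac counts depended more on the processing. Higher in RS were 3 genes, but 2 by pileup, without Usp25. The count was 5 when intervals assigned to the gene were added and 5 with summits within 2 kb (added after seeing the data). After scaling to the sample median it was 13, and 3 to 10 with samples left out. The 10 came without RS replicate 2. Higher in PS were 34, but 21 after that scaling and 22 by pileup, and 34 to 43 with samples left out. With a sample left out fewer values must lie apart, so both counts could only stay or grow. The cause of the other differences was not tested.

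Log2 changes that turned their sign were all of genes not called. Usp2 went to -1.07 when its isoform with the most reads stood for the gene. With library totals alone Usp28 was at -0.0016 and Usp8 at -0.012. With replicates left out, the range was -0.0710 to 0.0758 for Usp1, -0.342 to 0.0504 for Usp20, -0.0321 to 1.104 for Usp22, -0.0259 to 0.234 for Usp28, -0.294 to 0.138 for Usp35 and -0.297 to 0.0193 for Usp42.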
